A study of Mus musculus with 360 samples.

Results

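Reads of 10 genes for matricellular proteins were measured in single sorted skeletal stem and progenitor cells of the newborn mouse. The genes were Postn, Tnc, Tnn, Ptn, Mdk, Ctgf, Cyr61, Nov, Wisp1 and Wisp2. They were taken by symbol from the 24015 genes of the count tables, and all 10 were found. The cells came from wild-type CD-1 mice at postnatal day 3. PF, SAG and COR cells were from the posterior frontal, sagittal and coronal sutures of the skull vault, and GP cells were from the growth plate of the tibia. No agent, allele or transgene separated the 4 tissues. All were sorted for CD51 and CD200 on the surface and for the lack of blood, endothelial and other lineage proteins. Each tissue was 1 sample spread over 2 plates, and no animal, litter or culture was named, so no test between tissues was possible and none was run.

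Matricellular proteins are secreted into the extracellular matrix, where they act on cells more than they bear load. Periostin binds integrins and collagen, takes part in collagen cross-linking and marks periosteum, ligaments and fibrous tissue. Tenascins are large adhesion-modulating glycoproteins, of which tenascin C is made around forming bone and cartilage and tenascin N (also called tenascin W) is found in periosteum and bone. Pleiotrophin and midkine form a family of heparin-binding growth factors. The CCN proteins are built from the same modules and bind integrins, proteoglycans and growth factors. Cyr61 (CCN1) and Ctgf (CCN2) are classical early targets of the YAP and TAZ coactivators, which reach DNA through TEAD factors. Nov is CCN3, Wisp1 is CCN4 and Wisp2 is CCN5, the last of which lacks the carboxy-terminal module of its relatives.

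Of 360 cells, 325 held at least 500 genes and 10000 reads and were used: 87 of PF, 86 of SAG, 78 of GP and 74 of COR. Levels are in CPM, the reads of a gene summed over cells and scaled to a total of 1000000, with the ribosomal precursor Rn45s left out of that total. Summed reads other than Rn45s were 17212041 in SAG and 28471545 to 32037308 in the other tissues. SAG plate 2 stood apart, with Rn45s at 86.8% of its reads against 20.2% to 31% on the other 7 plates and a median of 875 genes per cell against 2111.5 to 3867. SAG values are therefore given by plate, and comparisons with SAG are repeated with plate 1 alone. The title of 1 SAG cell disagreed with its description, which named a PF plate. Well names recurred between tissues on plates of the same number, with 5 to 58 shared, but no cells were duplicates of each other (0 identical columns, highest correlation 0.629). Intervals are 95% exact intervals (Poisson for reads, Clopper-Pearson for shares of cells) and cover counting error only, since the reads carry no molecular identifiers. In summed reads, fewer cells with a transcript and less of it per cell cannot be told apart, so the share of cells with a read is given beside each level.

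The sort phenotype was checked against its genes. Reads of Itgav, the gene for CD51, were found in 18.6% of SAG cells and 36.8% to 60.8% of the cells of the other tissues, and reads of Cd200 in 33.7% and in 44.8% to 55.4%. The summed sort genes, positive and negative together, were at 205 to 286 CPM. Endothelial markers summed to 0 to 16.4 CPM, with Pecam1 at 0 in every tissue, haematopoietic markers to 3.14 to 24.8 CPM and skeletal muscle markers to 2.97 to 6.74 CPM. Osteoblast markers were at 33576 CPM in SAG and 101276 to 120049 CPM elsewhere. Chondrocyte markers were at 17176 CPM in SAG, 5621 in GP, 402 in PF and 296 in COR. Osteoclast markers were at 4298 CPM in SAG, 94.5% of it Mmp9, and at 563 to 959 CPM elsewhere. Tenocyte markers ranged from 1397 CPM in COR to 8389 CPM in GP. Fmod alone gave 66.8% of these reads in GP and 87.7% to 96.9% elsewhere. Neural and glial markers ranged from 45.8 CPM in SAG to 721 in GP, and pericyte and smooth muscle markers from 18 CPM in SAG to 1992 in GP. Some of these sums rested largely on 1 cell. In GP a single cell gave 68.3% of the pericyte, 64.5% of the chondrocyte and 52.9% of the neural reads. In SAG a single cell gave 47.2% of the osteoblast reads.

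The 10 genes lie on 7 chromosomes in the mm9 build. Postn spans chr3:54165031-54194961 on the plus strand, with 22 exons in the GENCODE vM1 annotation. Cyr61 lies on the same chromosome, at chr3:145309935-145312949 on the minus strand, and Ctgf at chr10:24315248-24318489 on the plus strand. The remaining spans are chr4:63620819-63681760 for Tnc, chr1:162015165-162083711 for Tnn, chr6:36665663-36761361 for Ptn, chr2:91769962-91772454 for Mdk, chr15:54577257-54585594 for Nov, chr15:66722882-66754763 for Wisp1 and chr2:163646597-163658882 for Wisp2. Exons of Tnc overlap the antisense gene 8030451A03Rik by 176 bases, those of Mdk overlap Chrm4 by 25 and those of Ctgf overlap Gm15270 by 570, all on the opposite strand. Whether strand was used in counting is not stated, so reads that lie within these overlaps cannot be separated from those of the partner gene.

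The 250 bases before the annotated start are shown for Cyr61, a YAP and TAZ target whose reads were highest on SAG plate 1, and for Postn, whose level separated PF from COR and GP. They are written 5′ to 3′ on the strand of the gene, from the mm9 genome. Capitals mark the TEAD motif GGAATG on either strand (CATTCC on the opposite one) and the TATA motif TATAAA on the strand of the gene.
Cyr61 (chr3:145312950-145313199, minus strand): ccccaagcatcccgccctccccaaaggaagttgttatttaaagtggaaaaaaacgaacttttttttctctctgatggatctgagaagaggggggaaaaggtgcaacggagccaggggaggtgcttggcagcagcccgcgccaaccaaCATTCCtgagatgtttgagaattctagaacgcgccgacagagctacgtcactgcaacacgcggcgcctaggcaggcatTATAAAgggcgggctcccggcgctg
Postn (chr3:54164781-54165030, plus strand): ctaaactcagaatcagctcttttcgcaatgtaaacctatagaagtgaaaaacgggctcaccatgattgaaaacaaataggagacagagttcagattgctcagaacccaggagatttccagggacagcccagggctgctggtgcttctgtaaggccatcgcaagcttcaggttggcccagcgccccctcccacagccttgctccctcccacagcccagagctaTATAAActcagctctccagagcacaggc

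GGAATG stood once before Cyr61, starting at -103 from the annotated start. It also stood once before Tnn, at -155, and in 11.4% of all 21845 windows of this length. TATAAA stood at -25 before Cyr61 and at -28 before Postn, against 8.38% of windows. Searched on both strands, the motifs TGANTCA (AP-1, in 6.03% of windows), the CArG box of serum response factor (1.35%) and GTCTAGAC (SMAD, 0.137%) were in none of the 9 member windows searched. The E-box CANNTG, which 63.6% of windows hold, was found in those of Ptn, Nov and Wisp2. A match describes the letters only.

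Postn was lower in PF than in COR and GP. It stood at 1352 CPM on PF plate 1 and 855 CPM on PF plate 2, at 4185 and 6331 CPM on the COR plates and at 5922 and 6191 CPM on the GP plates. SAG plate 1 held 1379 CPM and SAG plate 2 held 4359 CPM. Both PF plates thus lay below every other plate, with SAG plate 1 just above them, while COR and GP overlapped. Without its highest cell SAG plate 1 held 911 CPM, below PF plate 1, so the order of PF and SAG plate 1 rested on that cell. Summed over plates, PF held 952 CPM (940.7 to 963), COR 6114 CPM (6087 to 6141) and GP 6144 CPM (6116 to 6173). Cells with a Postn read made up 60.9% of PF (49.9% to 71.2%), 90.5% of COR (81.5% to 96.1%), 78.2% of GP and 51.2% of SAG. The Postn share was 52.9% and 66% on the PF plates, 56.7% and 48.2% on the SAG plates, 93.8% and 89.7% on the COR plates and 85% and 75.9% on the GP plates. In cells with a read the median level was 628 CPM in PF against 3778 in COR and 5388 in GP, so both the share and the level per cell were lower in PF. On SAG plate 2 the cell with most Postn reads, at 84330 CPM, gave 39.4% of them, and another cell reached 108127 CPM. Without the latter cell the plate held 2956 CPM.

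Tnc showed no such separation. It was read at 2230 and 1304 CPM on the PF plates, at 1110 and 1685 on the COR plates and at 1515 and 1946 on the GP plates, ranges that overlap. The SAG plates, at 876 and 585 CPM, lay below all of these. Cells with Tnc made up 83.8% of COR, 80.8% of GP, 62.1% of PF and 41.9% of SAG, with 56.7% on SAG plate 1 and 33.9% on plate 2.

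Tnn, the tenascin of periosteum and bone, had its highest level in COR. Its plates held 483 and 1029 CPM in COR, 116 and 529 in GP, 146 and 71.2 in PF and 149 and 136 in SAG. Both COR plates were above both PF and both SAG plates, and the GP plates spanned the gap. A Tnn read was present in 62.2% of COR cells (50.1% to 73.2%), 43.6% of GP cells, 23% of PF cells and 12.8% of SAG cells. On each SAG plate most of the reads lay in 1 cell, which gave 65.2% of them on plate 1 and 60.1% on plate 2.

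**Figure D1:**
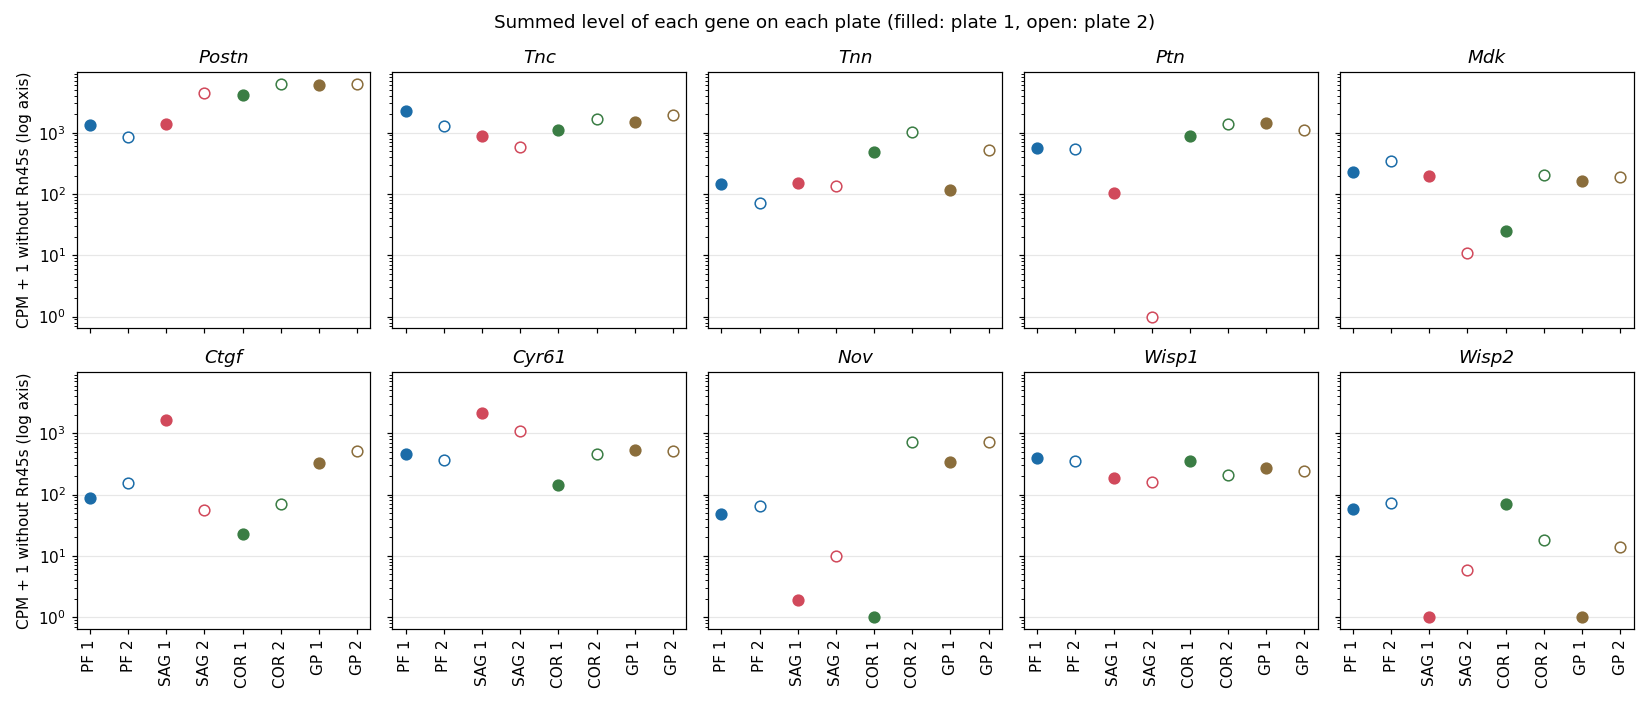
Summed CPM + 1 of each of the 10 genes (vertical axis, log scale, Rn45s left out of totals) on the 8 plates (horizontal axis, colour by tissue). Each point is 1 plate, filled for plate 1 and open for plate 2, and a plate without a read lies at 1. Both PF plates of Postn, at 1352 and 855 CPM, lie below the COR and GP plates, and Ptn has no read on SAG plate 2.

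Ptn and Mdk, the paired heparin-binding factors, were ordered differently across tissues. Ptn stood at 882 and 1399 CPM on the COR plates, 1414 and 1116 on the GP plates, 559 and 543 on the PF plates and 101.5 on SAG plate 1. None of the 56 cells of SAG plate 2 had a Ptn read, and a count of 0, read as at most 3 cells, allows a share of up to 5.36%. The plates of COR and GP overlapped and all lay above PF, which lay above SAG. Shares followed the same order, with 90.5% of COR cells, 79.5% of GP cells, 66.7% of PF cells and 8.14% of SAG cells (3.34% to 16.1%). The 7 SAG cells with Ptn were all on plate 1, where they made up 23.3% of cells.

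Mdk had its highest level in PF, at 228 and 350 CPM on its plates. The other tissues overlapped, with 24.1 and 205 CPM on the COR plates, 163 and 190 on the GP plates and 193 on SAG plate 1. SAG plate 2 was far lower, at 9.87 CPM. Reads of Mdk were present in 72.4% of PF cells, 69.2% of GP cells, 58.1% of COR cells and 30.2% of SAG cells, and in 76.7% of the cells of SAG plate 1 against 5.36% of plate 2.

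Ctgf and Cyr61 had their highest levels on SAG plate 1. Ctgf stood there at 1658 CPM and on SAG plate 2 at 54.2 CPM. The GP plates held 325 and 505 CPM, the PF plates 85.9 and 155 and the COR plates 21.3 and 70.1. GP thus lay above PF and PF above COR with no overlap, whereas the SAG plates lay on both sides of all of them except COR plate 1. A Ctgf read was found in 66.7% of cells on SAG plate 1 and 16.1% on plate 2, and in 59% of GP, 36.8% of PF and 40.5% of COR cells. The highest cell of SAG plate 1 gave 38% of its Ctgf reads.

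Cyr61 was read at 2113 and 1073 CPM on the SAG plates, above every other plate. The GP plates held 538 and 503 CPM, the PF plates 456 and 369 and the COR plates 142 and 453. Shares of cells differed much less: 60.3% of GP, 44.8% of PF, 41.9% of SAG and 40.5% of COR cells had a read. In cells with a read the median was 1699 CPM in SAG against 374 in GP, 467 in PF and 400 in COR. On SAG plate 1 a single cell gave 66.5% of the Cyr61 reads, and without the highest cell the level of SAG was 952 CPM.

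Immediate-early genes (a list added after the data were seen) stood at 13832 and 16317 CPM on the SAG plates against 402 to 2188 CPM on the other 6, and chondrocyte markers at 21695 and 14171 CPM on the SAG plates. Like Cyr61, both lists were highest on the SAG plates. Ctgf was high on SAG plate 1 alone, and both lists were high on both SAG plates. Their part in the levels of Ctgf and Cyr61 was not tested.

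**Figure D2:**
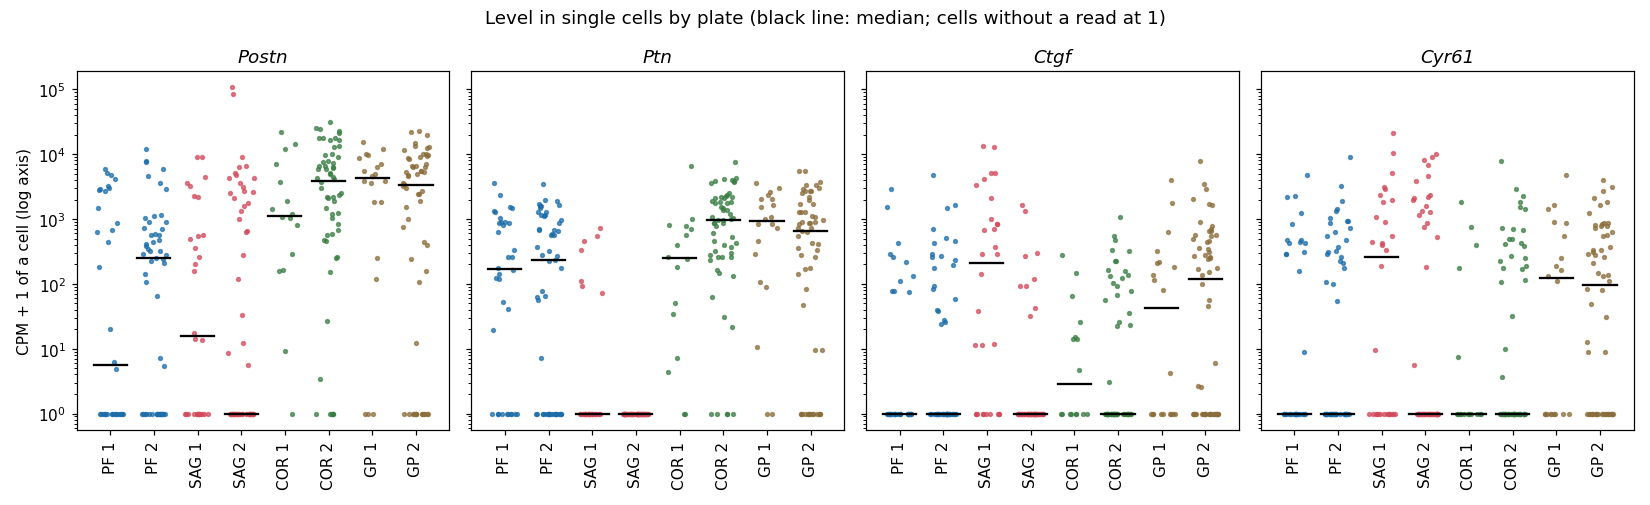
CPM of Postn, Ptn, Ctgf and Cyr61 in each of the 325 cells (vertical axis, CPM + 1 on a log scale), by plate. Each point is 1 cell, the black line is the median and cells without a read lie at 1. All 56 cells of SAG plate 2 lie at 1 for Ptn, and a single SAG cell reaches 108127 CPM of Postn.

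Nov was read in few cells outside GP. The GP plates held 332 and 730 CPM, with a read in 35% and 37.9% of cells. COR plate 2 held 722.5 CPM, from 15.5% of its cells, whereas none of the 16 cells of COR plate 1 had a read, which by the limit of 3 cells allows a share of up to 18.8%. The PF plates held 47.7 and 63 CPM and the SAG plates 0.873 and 8.90. The summed levels of GP and COR were close, at 661 and 649 CPM, but the share of cells with a read was 37.2% in GP (26.5% to 48.9%) and 12.2% in COR (5.71% to 21.8%). It was 6.90% for PF and 2.33% for SAG. A single cell gave 70.2% of the Nov reads of COR and 83.6% of those of PF. Without the highest cell the level of COR was 195 CPM and that of GP 520 CPM.

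Wisp1 was the most even of the CCN genes. Its plates held 396 and 347 CPM in PF, 273 and 241 in GP, 354 and 206 in COR and 187 and 161 in SAG. PF lay above GP and both SAG plates lay below all others, while the COR plates overlapped GP and reached into the range of PF. Wisp1 reads were found in 63.5% of COR, 61.5% of GP, 55.2% of PF and 31.4% of SAG cells. Its share on SAG plate 1, 46.7%, was nearer to that of the other tissues than the 23.2% of plate 2.

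Wisp2 was the rarest member. It had a read in 5 PF cells, 8 COR cells, 4 GP cells and 1 SAG cell. The PF plates held 56.5 and 72.3 CPM, the COR plates 69.8 and 17.2, GP plate 2 held 12.8 and SAG plate 2 held 4.84, with no read on GP plate 1 or SAG plate 1. A single cell gave 82.8% of the Wisp2 reads of PF, so its level there, 69.2 CPM, was mostly that of 1 cell and was 12.1 CPM without it.

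**Figure D3:**
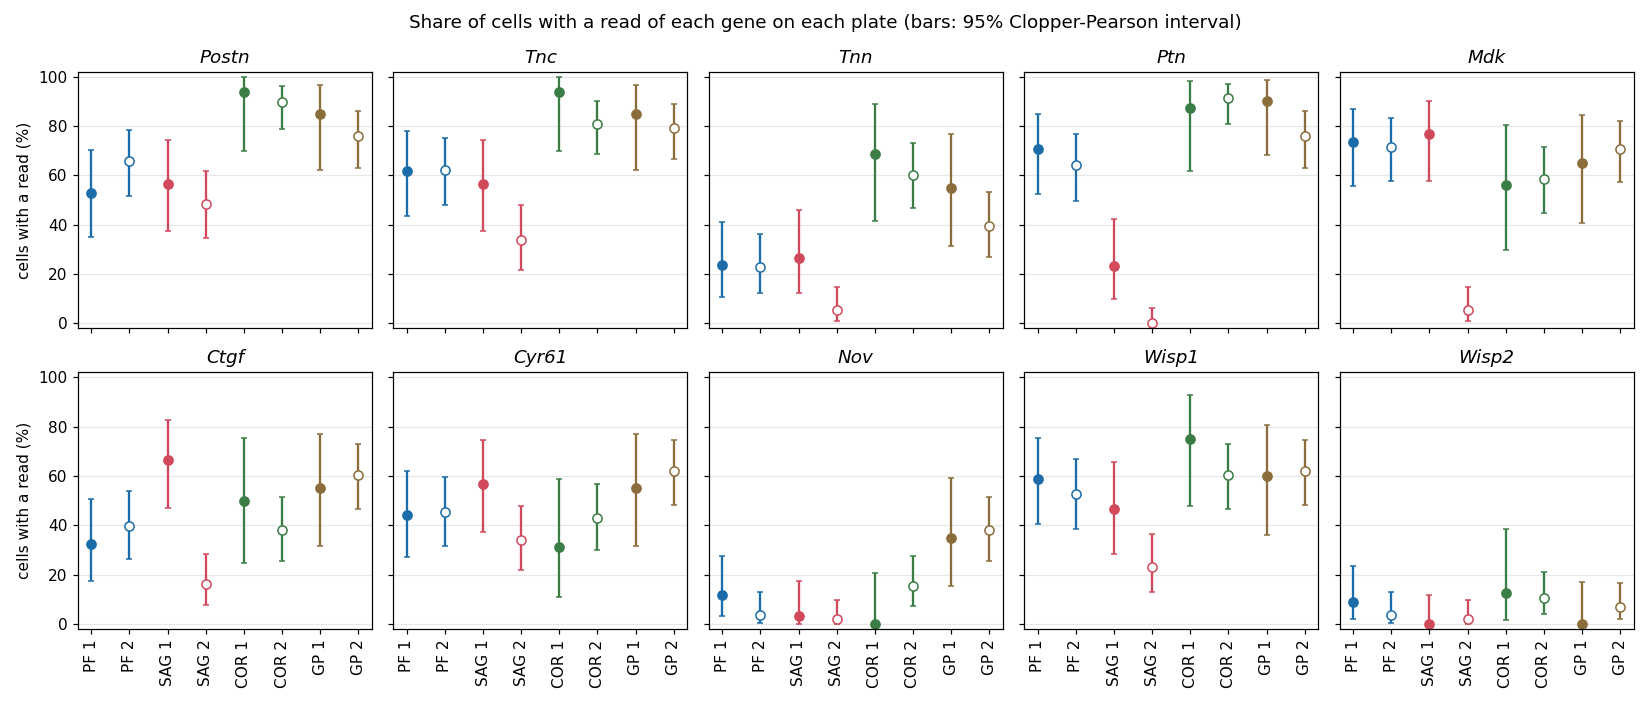
Share of cells with at least 1 read of each of the 10 genes (vertical axis, percent) on the 8 plates, filled for plate 1 and open for plate 2, with bars for 95% Clopper-Pearson intervals. COR plates lie at 93.8% and 89.7% for Postn, and SAG plate 2 lies at 0% for Ptn.

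Per length, in CPM per kb of exon, the members could be set beside each other. Postn was the highest in COR, at 780, before Ptn at 349 and Nov at 226, and likewise in GP, at 784, before Ptn at 303 and Cyr61 at 251. In PF the order was Mdk at 244, Tnc at 198, Cyr61 at 190, Ptn at 142 and Postn at 121, so Postn, first in COR and GP, came after 4 other members in PF. On SAG plate 1 it was Cyr61 at 1042, Ctgf at 666 and Postn at 176, and on SAG plate 2 Postn at 556 and Cyr61 at 529, before Tnc at 77.9. The Nov value of COR rested mostly on 1 cell, and so did the Cyr61 value of SAG plate 1, which was 374 without its highest cell, below the 560 of Ctgf without its own. Without the highest cell of each gene, SAG plate 2 held 2956 CPM of Postn and 960 CPM of Cyr61. Per kb this puts Postn below Cyr61 there.

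Differences between tissues are given as log2 ratios of CPM + 1, the first tissue over the second. A gene was counted where it differed by 2-fold or more with 1 sign throughout the 4 possible comparisons between their plates. This is a rule of size and not a test. Each background below is the share of all genes of at least 10 CPM in either tissue that met the same rule in the same direction, and all 10 members reached that level in at least 1 tissue of every pair. The 6 pairs share tissues and so are not independent of each other.

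Between PF and COR, 3 members were higher in COR, against 6.36% of 9514 genes. They were Tnn, with 11.2-fold (log2 -3.49, plate pairs -3.83 to -1.72), Postn, with 6.42-fold (-2.68, -2.89 to -1.63), and Ptn, with 2.46-fold (-1.30, -1.36 to -0.66). Ctgf was higher in PF by 2.16-fold (1.11, 0.29 to 2.81), where 5.43% of genes were, although thinning each cell to 100000 reads brought it under 2-fold. Mdk was 1.74-fold higher in PF, on all 4 plate pairs, and so short of the criterion. Tnc and Cyr61, both at -0.13, differed little, and Nov, at -3.41, had plate pairs of both signs. The median over the members was -0.13 and that over all genes 0.03.

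COR and GP differed in 1 member of high level. Ctgf was 7.17-fold higher in GP (-2.84, -4.50 to -2.20), in the direction met by 7.09% of 9431 genes. Wisp2 was 2.03-fold higher in COR, in the direction met by 6.33%, and this rested on 8 and 4 cells and was lost under TMM scaling. Postn (-0.01), Nov (-0.02), Mdk (0.01, and below 0 with TMM scaling), Wisp1 (-0.16) and Tnc (-0.20) were close, and Postn and Nov changed sign when Rn45s was counted in the totals. Without the highest cell of each gene Nov was higher in GP (-1.41) and Tnn higher in COR (1.02), both past the criterion.

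Against GP, PF was lower in Postn by 6.45-fold (-2.69), in Nov by 10.8-fold (-3.44), in Ctgf by 3.33-fold (-1.73) and in Ptn by 2.14-fold (-1.09). These 4 members compare with 8.73% of 9584 genes. Wisp2 was higher in PF by 6.07-fold, where 7.67% of genes were, and was no longer counted without the highest cell of each tissue. Tnn, at -2.40, was not counted because PF plate 1 held more than GP plate 1. Tnc (-0.33) and Cyr61 (-0.40) were nearest to even.

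**Figure D4:**
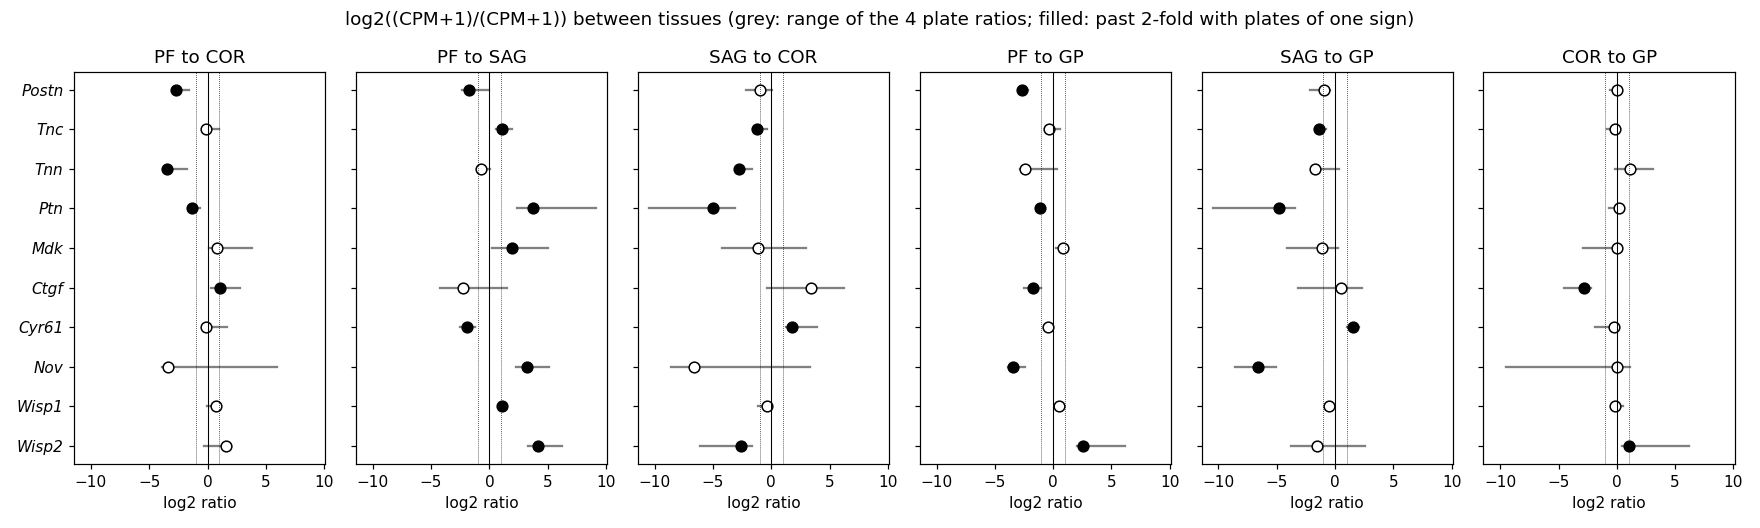
Log2 ratios of CPM + 1 of the 10 genes (horizontal axis) for the 6 pairs of tissues. The marker is the ratio of the summed cells, filled where the 2-fold criterion was met, and the grey line spans the 4 plate comparisons. Postn lies at -2.68 for PF over COR and at -2.69 for PF over GP, and Ctgf at -2.84 for COR over GP. The Postn ratio of PF over SAG and the Cyr61 ratios of SAG over COR and GP change sign when Rn45s is counted in the totals.

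Comparisons with SAG rest on plates that differed from each other in more genes than those of any other tissue. Within SAG 77.5% of genes differed 2-fold between plates, against 29.5% to 38.6% of genes in the other tissues. Of the 10 members, 6 differed so in SAG, 6 in COR, 3 in GP and 1 in PF. Counting Rn45s in the totals moved the median gene of PF over SAG from 0.29 to 1.99, that of SAG over COR from -0.29 to -2.0 and that of SAG over GP from -0.23 to -1.86.

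Against PF, SAG was lower in 6 members, where 16.9% of 9869 genes were: Ptn by 13.2-fold (3.72), Nov by 9.12-fold (3.19), Mdk by 3.89-fold (1.96), Tnc by 2.12-fold (1.08), Wisp1 by 2.07-fold (1.05) and Wisp2, with 1 SAG cell, by 18-fold (4.17). Higher in SAG were Cyr61 by 3.85-fold (-1.95) and Postn by 3.33-fold (-1.73), where 13.2% of genes were, and the sign of Postn turned (0.15) when Rn45s was counted. With SAG plate 1 alone 5 members were counted. Ptn (5.34-fold), Nov and Wisp2, which had no read there, were higher in PF, against 16.1% of 9599 genes. Ctgf (11.6-fold) and Cyr61 (5.47-fold) were higher on SAG plate 1, against 17.2%. Without the highest cell of each tissue as well, the Cyr61 ratio was -1.05, just past 2-fold, and that of Ctgf -3.41. Postn, Tnc, Mdk and Wisp1 were not counted without SAG plate 2, with Postn at -0.54. Tnn, at -0.72 with both plates, was not counted in either case and changed sign with Rn45s counted.

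Against COR, SAG was lower in Ptn by 32.4-fold (-5.02), in Tnn by 6.84-fold (-2.77), in Tnc by 2.32-fold (-1.21) and in Wisp2 (-2.59), in the direction of 18.9% of 9800 genes. Cyr61 was 3.52-fold higher in SAG (1.82, 1.24 to 3.88), where 13.5% of genes were, and turned to -0.080 when Rn45s was counted. Ctgf, at 3.39, had plate pairs of both signs, with SAG plate 2 below COR plate 2. With plate 1 alone, Ctgf (25.1-fold) and Cyr61 (5.0-fold) were higher in SAG, against 16.5% of 9515 genes. Ptn (13.1-fold), Tnn (6.50-fold), Postn (4.43-fold) and Wisp2 were higher in COR, against 15.5%. Mdk, at -1.16 with both plates, changed sign without plate 2.

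Against GP, SAG was lower in Nov by 98.9-fold (-6.63), in Ptn by 28.1-fold (-4.81) and in Tnc by 2.67-fold (-1.41), in the direction of 18.3% of 9845 genes. Nov was read in only 2 SAG cells. Cyr61 was 2.92-fold higher in SAG (1.54, 0.99 to 2.07), where 13.3% of genes were, and turned to -0.27 when Rn45s was counted. It also fell just short of 2-fold (0.99) without the highest cell of each tissue. With SAG plate 1 alone, Cyr61 (4.14-fold) and Ctgf (3.50-fold) were higher in SAG, against 17.6% of 9532 genes, but Cyr61 was at 0.66 and not counted once the highest cell of each tissue was left out too. Ptn (11.4-fold), Postn (4.45-fold), Tnc (2.14-fold) and Nov were higher in GP, against 16.4%. Ctgf with both plates was at 0.55 and changed sign with Rn45s counted, and Mdk, at -1.15, changed sign without SAG plate 2.

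Single cells held reads of several members at once. The median cell of GP held 6.5 members, that of COR 6, that of PF 5 and that of SAG 2 (4 on plate 1 and 2 on plate 2). At least 7 members were read in 50% of GP cells, 27% of COR cells, 13.8% of PF cells and 1.16% of SAG cells. No cell held all 10, and 7 GP cells held 9. Every COR and GP cell had at least 1 member, and 4 PF and 9 SAG cells had none. After thinning each cell to 100000 reads, which left 288 cells, the medians were 7 for GP, 6 for COR, 5 for PF and 2 for SAG.

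Co-detection was set against the number of cells expected if the genes of a pair fell independently within each plate, for pairs with at least 5 cells so expected. The median ratio of observed to expected was 1.12 in GP, with 35 of 36 such pairs above 1, and 1.13 in PF, with 25 of 28. It was 1.05 in SAG, with 15 of 21 pairs above 1, and 1.01 in COR, with 20 of 38. Pairs share genes and cells differ in depth, so ratios slightly above 1 are not read as a relation between genes.

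Periostin and Tnn were found together in more cells than expected in each tissue, with the highest ratios in PF and SAG. In COR all 46 cells with Tnn had Postn, with 41.7 expected, but so did 90.5% of all COR cells. In PF 18 cells had both, with 12.2 expected (ratio 1.48, and 1.58 after thinning), and in SAG 9, with 5.98 expected (1.51). In GP 33 cells had both, with 26.8 expected (1.23). The GP ratio after thinning, 1.14, was close to the median given above for all GP pairs without thinning. Tnc and Tnn had ratios of 1.37 in PF, 1.14 in COR and 1.20 in GP.

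The pair Ctgf and Cyr61 had the highest ratio in PF. Both were read in 25 cells, with 14.4 expected (1.74, and 1.64 after thinning). Cyr61 was found in 78.1% of PF cells with Ctgf and 25.5% of those without, at medians of 2671 and 2401 genes per cell. The ratio was 1.19 for GP, 1.17 for COR and 1.04 for SAG, whose plate 1 had the highest levels of both. In contrast, Cyr61 and Tnn shared 6 PF cells, with 8.96 expected (0.67, and 0.59 after thinning).

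Nov and Wisp1 led in GP. They were read together in 24 cells, with 17.9 expected (1.34), and Wisp1 was found in 82.8% of cells with Nov and 49% of those without. In COR, each of the 43 cells with Mdk also had Ptn, but so did 90.5% of all COR cells. Nov and Postn had a ratio of 0.74 in COR.

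**Figure D5:**
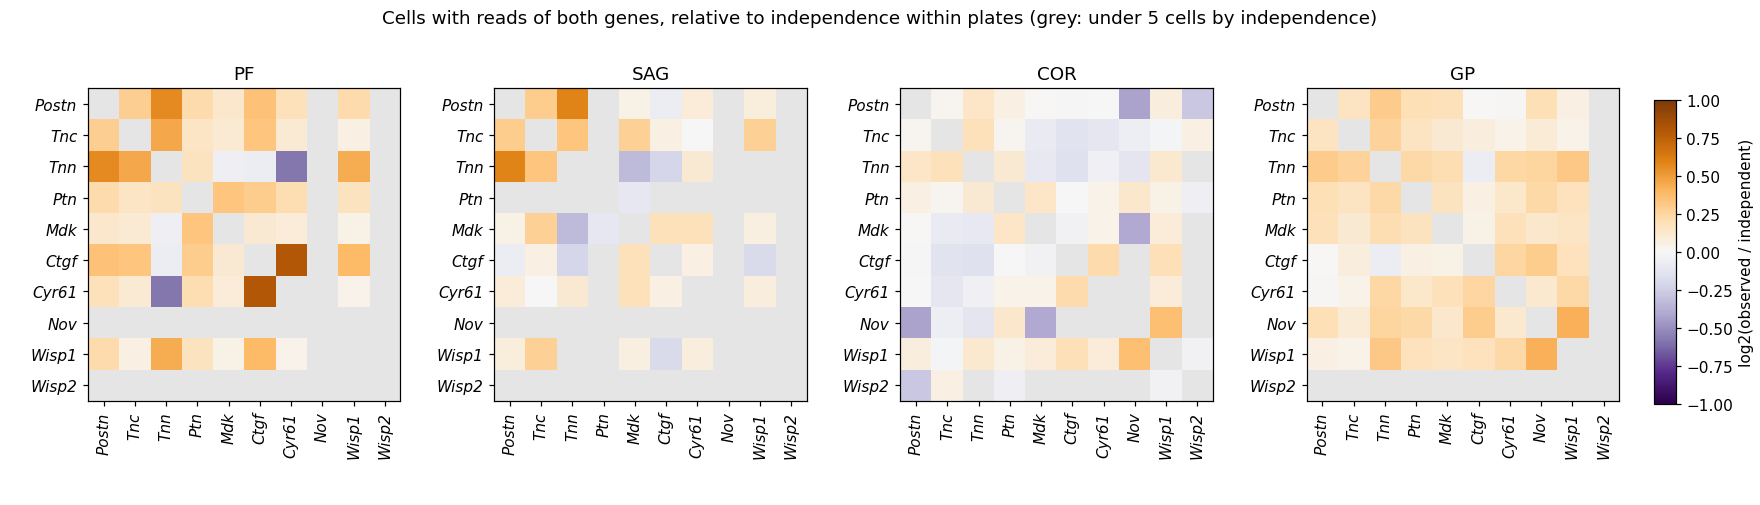
Observed over expected number of cells with reads of both genes of a pair, in each of the 4 tissues (colour, log2 of the ratio, orange above and purple below independence within plates). Pairs with fewer than 5 expected cells are grey. The darkest orange is Ctgf with Cyr61 in PF, at a ratio of 1.74, and Nov with Wisp1 leads in GP, at 1.34.

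Cells were also divided by reads of 3 genes of other cell states, all as descriptions: Ibsp, the bone sialoprotein gene of osteoblasts, Col2a1, the main cartilage collagen, and Acta2, smooth muscle actin. Ibsp reads were present in 27 PF, 19 COR, 18 GP and 9 SAG cells. Ptn was less frequent in these cells in the first 3 of these tissues. It was read in 33.3% of PF cells with Ibsp and 81.7% of those without, in 73.7% and 96.4% in COR and in 50% and 88.3% in GP, at levels of 148 against 756 CPM, 328 against 1644 CPM and 694 against 1314 CPM. Both PF plates showed it, at 33.3% against 90.9% and 33.3% against 76.3%. Postn levels were lower with Ibsp too, at 1600 against 7431 CPM in COR, 2613 against 7234 in GP and 529 against 1174 in PF. Mdk was read in 48.1% against 83.3% in PF and 42.1% against 63.6% in COR, but in 77.8% against 66.7% in GP. Tnn differed in direction between tissues, at 40.7% with and 15% without Ibsp in PF and 11.1% with and 53.3% without in GP. That difference between tissues was not tested.

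Col2a1 reads were present in 56 SAG and 21 GP cells, and in only 8 PF and 3 COR cells. On SAG plate 1 Ctgf was found in 81.8% of the 22 cells with Col2a1 and in 25% of the 8 without, at 2390 against 5.21 CPM. On SAG plate 2 the shares were 11.8% and 22.7%, the opposite order. In GP they were 76.2% and 52.6%, at 838 against 305 CPM. Postn was lower in cells with Col2a1, at 854 against 7434 CPM in SAG and 2835 against 7676 CPM in GP. GP plate 1, with 3 such cells, had the opposite order (10781 against 4907 CPM). The 7434 CPM of SAG rested largely on the plate 2 cells at 84330 and 108127 CPM. Shares of SAG cells with Postn were 44.6% with Col2a1 and 63.3% without.

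Acta2 reads were present in 30 PF, 29 COR, 15 GP and 1 SAG cell. In COR, Tnn was found in 93.1% of cells with Acta2 and 42.2% of those without, at 1472 against 685 CPM. The shares were 100% and 28.6% on plate 1, 90% and 44.7% on plate 2, and 92.6% and 38.6% after thinning. Postn was present in 100% and 84.4% of these COR cells, at 8696 and 4613 CPM. Of the 6 PF cells with Nov, 5 had Acta2.

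The genes most like each member were named by the mean within-plate correlation of log2(CPM + 1) over the 269 cells of the 7 plates other than SAG plate 2, among 5375 genes read in at least 20% of these cells. The cells of a plate share its library preparation and differ in depth, and the correlation of a member with the number of genes per cell was -0.16 to 0.29. Nov (16.7% of cells) and Wisp2 (6.32%) were too rare to enter. Postn was most like Col3a1 (0.67), then Ptn and Tnn (both 0.50), and Ptn was most like Itm2a (0.64), Aspn (0.62) and Col3a1 (0.61). Col3a1, a collagen of fibrous tissue, was thus named for both. For Tnc the nearest were Col12a1 (0.43), Postn (0.42) and Col6a3 (0.40), and for Tnn they were Npnt (0.53), Postn (0.50) and Alpl (0.47), the alkaline phosphatase of mineralizing cells. Mdk stood nearest to Igf1 (0.56), Igfbp4 and Islr (both 0.55), with Ptn at 0.38. Ctgf had Igfbp3 (0.46), Chad (0.40) and Ltbp2 (0.39), and Wisp1 had Kazald1 (0.43), Entpd4 (0.38) and Col1a1 (0.35). For Cyr61 they were the immediate-early gene Fos and Ctgf (both 0.31) and Cirbp (0.29), the lowest values among the 8 members.

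The targets of YAP and TAZ other than members were examined beside Ctgf and Cyr61. For this and the following lists, the background is the share of all genes that met the same rule. Against the other tissues 13.2% to 13.5% of all genes were higher in SAG and 16.9% to 18.9% lower. With SAG plate 1 alone these shares were 16.5% to 17.6% and 15.5% to 16.4%. The 20 genes summed to 4661 and 2788 CPM on the SAG plates, against 2220 CPM for GP, 1350 for PF and 1104 for COR. On SAG plate 1 Ccdc80 gave 72.6% of these reads. Between SAG and COR, Amotl2, Axl, Crim1 and Ptpn14 of 15 measured were higher in SAG and Igfbp3 was higher in COR, with a median of 1.74 against -0.29 over all genes. With SAG plate 1 alone 8 were higher in SAG and 1 in COR, with a median of 1.30 against 0.02 over all genes. Crim1 and Ptpn14 were not among these 8. The list median was then -0.50 for PF over SAG, against -0.003 over all genes. For SAG over GP it was 0.45, against 0.098. PF and GP were likewise below SAG in Amotl2 and Axl, PF also in Ptpn14 and GP also in Crim1, and Igfbp3 was higher in both. With SAG plate 1 alone Axl was not counted against PF or GP, nor Crim1 against GP. Between COR and GP, 5 of 15 (Igfbp3, Fjx1, Ccdc80, Nt5e and Tgfb2) were higher in GP, as Ctgf was, against 7.09% of all genes. F3 was higher in COR, against 6.33%. Crim1 was the single gene of 17 counted between PF and COR, higher in PF, as were 5.43% of all genes. PF and GP differed in 5 of 17, with Igfbp3, Nt5e, Ptpn14 and Tgfb2 higher in GP and Crim1 higher in PF. Over all genes 8.73% were higher in GP and 7.67% in PF.

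Receptors of the members, such as integrins, syndecans and Lrp genes, were summed and compared in the same way. The 17 genes summed to between 2770 CPM, in PF, and 3425 CPM, in SAG. Between PF and COR 0 of 16 measured met the criterion, where 5.43% of all genes were higher in PF and 6.36% in COR. In so short a list a count of 0 is near these shares and is not read as a difference from the members. Between COR and GP, Itga6, Itga8, Ptprz1 (a receptor of pleiotrophin and midkine) and Sdc1 of 16 measured were higher in GP and none in COR. Over all genes these shares were 7.09% and 6.33%. Sdc4 and Lrp6 were higher in SAG than in each other tissue, but Lrp6 was not counted against PF or COR with SAG plate 1 alone. Against GP, SAG was also higher in Itga5 and lower in Itga6, Itga8 and Sdc1. With plate 1 alone Itga5 and Sdc1 were not counted there, and Ptprz1, Sdc3 and Lrp1 were lower in SAG. Sdc3 and Lrp1 were then also lower in SAG than in PF and COR, and Sdc2 was higher in SAG than in PF. PF and GP differed in Sdc1, higher in GP, as were 8.73% of all genes.

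The 7 matrix partners, among them fibronectin, lysyl oxidase and proteoglycans, showed 0 genes past the criterion between PF and COR. Over all genes 5.43% were higher in PF and 6.36% in COR, so 0 of 7 is near that share. Fn1 stood at 6752 CPM in SAG, where it gave 56.9% of the reads of the list, and at 1522 in PF, 1908 in COR and 2816 in GP. Against PF, Fn1, Col12a1 and Acan were higher and Lox and Dcn lower in SAG, and with plate 1 alone Vcan joined those lower while Col12a1 was not counted. Against COR, SAG was higher in Fn1 and Acan and lower in Lox and Dcn, and against GP it was higher in Fn1 and lower in Lox and Dcn. With SAG plate 1 alone Vcan was also lower than in COR, and against GP only Vcan and Dcn were counted, both lower in SAG. Vcan was higher in PF than in GP, as were 7.67% of all genes. Acan was higher in GP than in COR and PF, at 279 against 111 and 112 CPM. In these directions 7.09% and 8.73% of all genes were counted.

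Other matricellular genes, 12 in number, were led by Sparc, the osteonectin gene, at 22727 CPM in SAG and 31388 to 35970 CPM elsewhere. Between PF and COR 0 of 7 measured were counted, and between PF and GP 0 of 6. Over all genes 5.43% were higher in PF and 6.36% in COR, and 7.67% were higher in PF and 8.73% in GP. Between COR and GP 1 of 7 was counted, Sparcl1, higher in GP, as were 7.09% of all genes. Spock2 was higher in SAG than in each other tissue, Smoc1 was higher in SAG than in COR and GP, Sparcl1 higher in SAG than in COR, and Fstl1 lower in SAG than in PF and GP. With SAG plate 1 alone Fstl1 was not counted against GP, and Tgfbi was higher in SAG than in PF and GP. Wisp3, the remaining CCN gene, was read on SAG plate 1, at 36.7 CPM, and in 1 cell of COR plate 2, at 0.035 CPM, and Tnr, the tenascin of the nervous system, was at 0 on all 8.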

How the data were processed

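Single sorted cells were profiled by RNA-seq. The values are raw counts of reads per gene and cell, as the authors deposited them, in a table for each of the 8 plates. The submitters' processing notes name STAR 2.5.3a, HTSeq, Seurat 2.3.0 and R 3.4.4 and the build mm9. The annotation and the use of strand in counting are not given in the sources used here. The labels and the published methods name different sequencers and RNA preparations. The counts carry no molecular identifiers, so PCR copies are counted as reads.

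Cells were grouped by the tissue and plate in their titles. Each tissue counted as 1 sample, so values are descriptive and no p-value was computed. The members, lists and rules were chosen with earlier results of these data known. All 10 members are described. The other genes named are the 3 most alike genes of each member read in at least 20% of cells, and genes of the lists that met the 2-fold rule or gave most reads of their list. A pseudocount of 1 CPM was added before taking logs.

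Summed reads other than Rn45s numbered 17212041 to 32037308 per tissue and 3237921 to 28799387 per plate. A count of 0 was taken to allow 3 counts. Calculations used Python 3.11.15, numpy 2.4.6, pandas 2.3.3, scipy 1.17.1 and matplotlib 3.10.9, and TMM factors came from edgeR 4.0.16 in R 4.3.3. The counting rule was tested on simulated data. Positions, exon lengths and upstream windows came from the mm9 genome and GENCODE vM1, and the window of Ctgf is not reported here. Alternatives were other totals (Rn45s counted, TMM factors), stricter or no cell filters, single plates, thinning, means over cells, leaving out the highest cell, the cell with conflicting labels or SAG plate 2, other pseudocounts and folds, and other gene filters for the background. The 35 cells that failed the filter entered no comparison.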

Additional observations from a re-analysis of the deposited data

Results flagged for a closer look

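The 35 cells that failed the filter on genes and reads, which entered none of the comparisons, still held reads of 5 members above the limit that a count of 0 allows. Postn had 57034 reads there, of which 57014 were in the 8 failing SAG cells and 56870 in a single one of these. Tnc had 4481 reads, with 3768 in 1 SAG cell and 698 in GP cells. Mdk had 207 reads, 135 of them in GP and 72 in SAG, and Tnn had 189, all in 1 SAG cell. Nov had 6 reads. The failing SAG cells had 10095118 reads in all and a median of 326 genes, so they failed on the number of genes, while the 14 failing PF cells had 63923 reads together and the 6 of COR 4236. Cyr61 and Wisp1 had no read in any failing cell.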

How the results depend on the processing

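No paired analysis was possible because plate numbers do not pair the tissues and no test was run. Of 750 recomputed log2 ratios of members, 654 moved by no more than the plate SD, 93 moved further and 3 reversed. A reversal was counted only where the member met the 2-fold criterion as reported. Sign changes of members that did not meet it, such as Tnn in PF over SAG, are among the other ratios. The reversals came with Rn45s counted in the totals, for Postn in PF over SAG (0.15) and Cyr61 in SAG over COR (-0.080) and SAG over GP (-0.27). Of 81 recomputed counts of members past 2-fold, 64 stayed within 1.5 times the reported value. For PF and COR, the number of members counted went from 4 to 7 with plate 1 cells only and 2 at 4-fold. For PF and SAG it went from 8 to 5 with TMM factors, 5 with cells of at least 1500 genes and 50000 reads, 5 without SAG plate 2 and 3 at 4-fold. SAG and COR went from 5 to 3 at 4-fold, and PF and GP from 5 to 3. For SAG and GP it went from 4 to 8 with plate 2 cells only and 2 at 4-fold. For COR and GP it went from 2 to 1 with TMM factors, the stricter cell filter, plate 2 cells only, a pseudocount of 10 or 4-fold, to 6 with plate 1 cells only and to 4 without the highest cell of each gene. The median number of members per cell went to 4 in PF with all deposited cells, to 4.5 in SAG with the stricter filter, which left 237 cells and 0 of SAG plate 2, to 4 in SAG with plate 1 cells only, and to 5.5 in COR where a member needed 10 CPM. Leaving out SAG plate 2 together with the highest cells, an alternative chosen after seeing the data, counted 6 members in each of the 3 pairs with SAG. Causes were not tested. The share of genes counted in either direction was 11.8% to 32.4% over the 6 pairs, 12.7% to 30.1% with genes of at least 1 CPM and 6.78% to 16.1% with no filter on genes.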
